A study of Drosophila melanogaster with 30 samples.

Results

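The Cpr genes of Drosophila melanogaster encode cuticle proteins and take their symbols from the cytological band in which they lie. All genes whose FlyBase symbol is Cpr followed by a number were taken, which gave 70 genes out of 17869 annotated gene entries of the glia dataset and 17753 of the neuron dataset. Membership was set by the symbol, with no threshold on a measured value. RNA-seq counts of these genes were available for 30 adult head libraries, collected 22 to 31 h after eclosion, in 6 groups of 5. Glial overexpression flies carried repo-Gal4, a driver active in glia, with UAS-bchs::HA, a transgene for the tagged protein Blue cheese (Bchs), the fly counterpart of WDFY3. Their controls were repo-Gal4/+ and UAS-bchs::HA/+. Neuronal overexpression flies carried nSyb-Gal4, a driver active in neurons, with the same transgene, and their controls were nSyb-Gal4/+ and a second set of UAS-bchs::HA/+ flies. The series compares each overexpression with its own driver and transgene controls, and neither driver is targeted at the epidermis. Sex, and the number of heads in a library, are not given in the labels, and nothing states that samples of a group came from separate crosses, so that p-values measure the spread between these samples.

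The insect cuticle is an extracellular layer of chitin fibres embedded in proteins, secreted at its apical side by the epidermis and by the epithelia of trachea, foregut and hindgut. Proteins of the Cpr family carry the Rebers-Riddiford consensus, a chitin-binding stretch, and differ in the mechanical properties and body regions of the cuticle they serve. Much of the adult exoskeleton is laid down before eclosion, and deposition of inner layers, tanning and hardening go on after it. In the head the same class of proteins also forms part of the corneal lenses of the compound eye, beside Crys (drosocrystallin) and retinin.

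Glia dataset libraries held 28685786 to 84208964 gene counts, and neuron dataset libraries 44017794 to 60266009. Expression of bchs checked the labels. It lay between 1127 and 1254 CPM (counts scaled to a common library total, with TMM factors) in glial overexpression and at or below 210.4 CPM in all 10 controls of that dataset. In the neuron dataset it lay between 304.5 and 577.4 CPM in overexpression and at or below 127.8 CPM in the controls. In UAS control 2 and repo-Gal4 control 3 of the glia dataset, counts of long transcripts were low: the length slope, meaning by how much log2 CPM departed from the median library for each doubling in exon length, was -1.20 and -0.82, against -0.33 to 0.08 in the other 13. Heads of the glia dataset were homogenised in Trizol ahead of the RNA column, and those of the neuron dataset were not. Driver and extraction therefore cannot be told apart between the datasets. The neuronal gene nSyb, the glial gene repo and the photoreceptor gene ninaE had counts in every library, as heads should show. Of markers of tissues outside the head, the summed level of 3 male accessory gland genes was at most 0.123 CPM. That of the 4 trunk Hox genes Antp, Ubx, abd-A and Abd-B was 0.0507 to 1.98 CPM in glia dataset libraries and 2.26 to 3.90 CPM in those of the neuron dataset, with abd-A and Abd-B at 10 counts or fewer in any library.

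In the annotation of build BDGP6.54, 35 of the 70 genes lie on chromosome arm 3L, 21 on 2R, 5 each on 2L and 3R, and 4 on X. When neighbours no more than 20000 bases apart were joined, 12 clusters held 49 genes and 21 stood alone. The largest cluster was Cpr49A with 8 genes at 2R:12376626-12415170, followed by Cpr47E with 7 at 2R:11251751-11278445 and Cpr65A with 7 at 3L:6131242-6161589. Exons of 5 genes overlap an exon of another gene (Cpr47Ea, Cpr57A, Cpr65Au, Cpr67Fb and Cpr73D), and their counts are uncertain because the use of strand is not given in the sources used here.

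The family was expressed very unequally in the adult head. A mean over the 30 libraries of at least 50 CPM was reached by 13 genes, 10 lay between 5 and 50, 6 between 1 and 5, 13 between 0.1 and 1, and 28 below 0.1 CPM. No count at all was seen for Cpr57A, Cpr65Ax1 and Cpr65Ax2, and these were among 8 genes with at most 3 counts in every library. The paired copies Cpr65Ax1 and Cpr65Ax2, both with 306 coding bases, and Cpr67Fa1 and Cpr67Fa2, both with 402, may share reads, and reads that map to several places were counted apart from genes. The 10 genes highest in CPM made up 80.97 to 85.51% of the family's summed CPM in every library.

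Per kilobase of annotated exon, a scale that allows genes to be compared, Cpr65Au was highest with a mean of 357 CPM per kb over all libraries, followed by Cpr49Ae with 342 and Cpr100A with 325. The order of these 3 differed between groups: Cpr100A ranked first in neuronal overexpression and the nSyb-Gal4 control, Cpr49Ae with repo-Gal4 alone and in the UAS control of the neuron dataset, and Cpr65Au in the other 2 groups. The overall place of Cpr65Au, and that in the UAS control, rested on UAS control 2 and repo-Gal4 control 3 of the glia dataset. Without them Cpr49Ae was first with 345 CPM per kb, Cpr100A had 332 and Cpr65Au 328, and in the UAS control of the glia dataset Cpr49Ae had 381 and Cpr65Au 273 CPM per kb. Below them came Cpr67B at 191 CPM per kb, Cpr49Ag at 155, Cpr97Eb at 147 and Cpr62Bc at 132. Cpr62Bb stood at 79.5, Cpr11B at 70.7 and Cpr47Ee at 64.3 CPM per kb. High and silent genes lay side by side. In the Cpr65A cluster, Cpr65Au alone was above 0.1 CPM on average, and in the Cpr49A cluster Cpr49Ae was at 406 CPM and its neighbour Cpr49Ad at 0.00805 CPM.

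**Figure D1:**
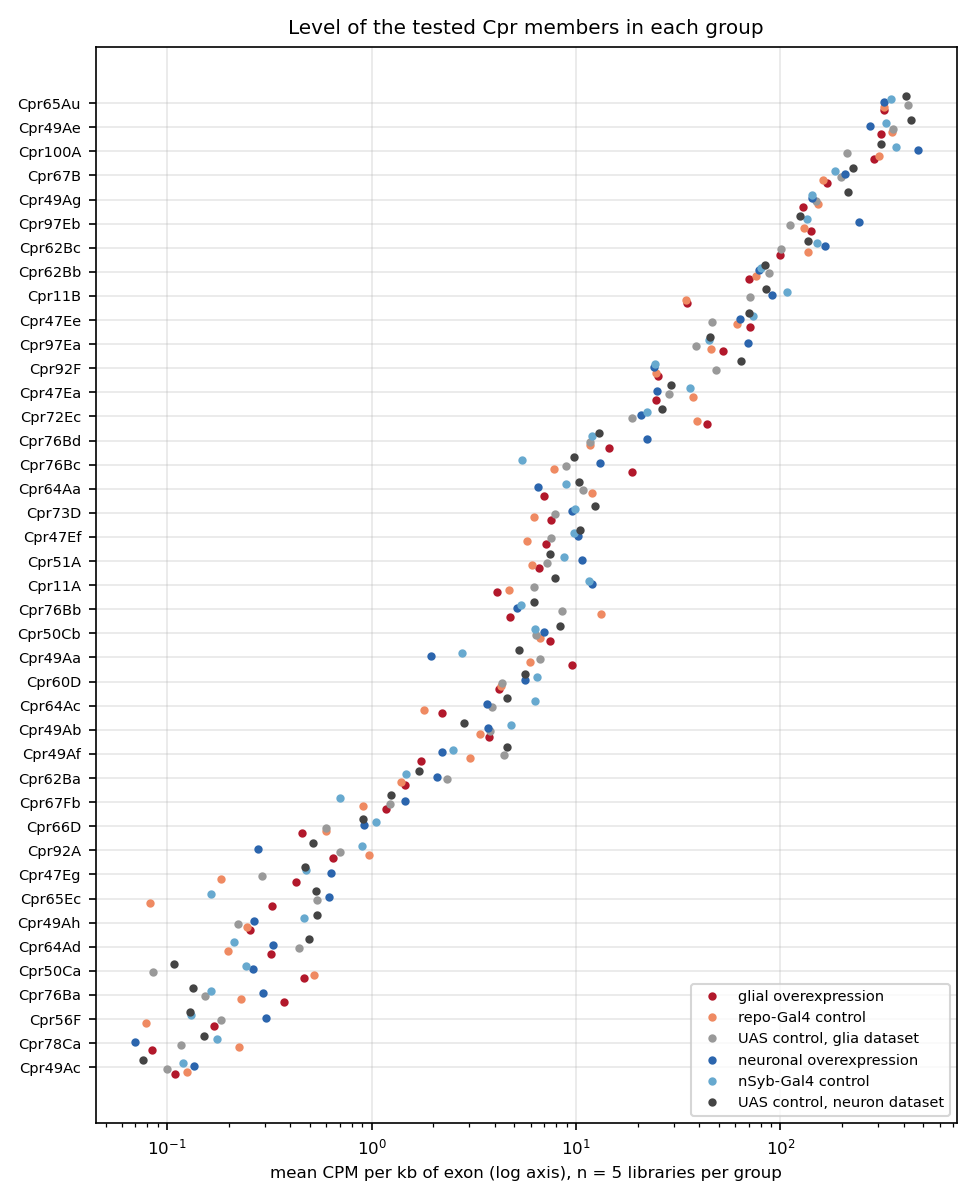
Mean level of the 41 genes tested in the fit of all libraries, in CPM per kilobase of annotated exon on a log axis, with 1 point per group (n = 5 libraries each) and genes ordered by their mean over the 30 libraries. Levels span from Cpr65Au at 357 CPM per kb to genes near 0.1, and for most genes the 6 groups lie closer together than neighbouring tiers of genes do.

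With all libraries, the summed level of the family was similar in the 3 groups of the glia dataset, at 2054 ± 142 CPM (SD, n = 5) with glial overexpression, 2119 ± 241 with repo-Gal4 alone and 2053 ± 222 with the transgene alone. The highest sum of each control group came from a library low in long transcripts. UAS control 2 had 2394 CPM, beside 1864 to 2158 in its group, and repo-Gal4 control 3 had 2539, beside 1946 to 2075. In the neuron dataset it was 2581 ± 168 CPM with overexpression, 2310 ± 67.1 with nSyb-Gal4 alone and 2522 ± 156 with the transgene alone. Overexpression libraries (2410 to 2792 CPM) lay above all nSyb-Gal4 libraries (2202 to 2387) and overlapped the UAS control (2282 to 2669). Because libraries are of whole heads, fewer cells of a type and less RNA per cell cannot be told apart.

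Cpr genes are short, and the 2 libraries with few long transcripts stood apart in them. The median annotated exon length was 1012 bases for the 40 genes tested in the glia dataset, against 2166 for all genes with at least 1 CPM there. In UAS control 2, 21 of the 40 genes lay above all 4 other libraries of the group (median length 972 bases) and 14 below all of them (median 1256 bases). In repo-Gal4 control 3, 26 lay above and 5 below. Cpr65Au, with 526 exon bases, was at 532.3 CPM in UAS control 2 and at 130.7 to 163.7 in the other 4. Cpr76Bd, with 4525 exon bases, was at 21.95 CPM there and at 52.98 to 71.66 in the others. Length did not sort all genes. Cpr73D, with 3030 exon bases, was at 31.71 CPM in UAS control 2 and at 18.94 to 23.73 in the other 4. Genes as short as 650 bases lay below their group there. Calls of the glia dataset are therefore given with and without these 2 doubted libraries.

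**Figure D2:**
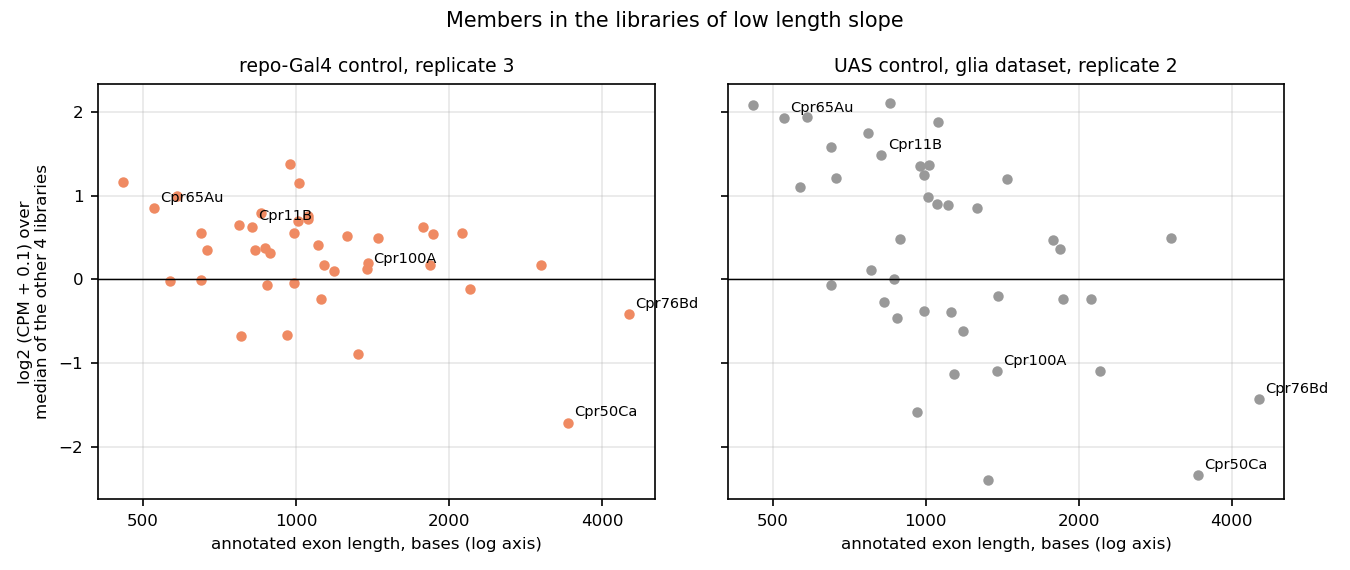
Each point is 1 of the 40 Cpr genes tested in the glia dataset, at its annotated exon length (x, log axis) and its log2 ratio of CPM + 0.1 in the named library over the median of the other 4 libraries of its group (y). In both libraries the short gene Cpr65Au lies above 0 and the long genes Cpr50Ca and Cpr76Bd lie below 0. Length does not sort all genes: Cpr73D, with 3030 exon bases, lies above 0 in both.

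Of the family, 40 genes passed the filter on low counts for the glia dataset, 39 for the neuron dataset, 38 in both and 29 in neither. A gene was called at an adjusted p under 0.05 in edgeR's quasi-likelihood test with Benjamini-Hochberg adjustment over all genes tested. Passing the filter depends on the level in a group, so counts over the tested genes are descriptions.

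Under glial overexpression, Cpr76Bc rose against both controls, and no other family member passed both tests. Cpr76Bc (FBgn0036880, 3L:19520945-19527272) lies in a cluster of 4 genes at band 76B. It was at 34.65, 41.07, 31.83, 32.45 and 31.86 CPM in glial overexpression. The repo-Gal4 control had 12.34, 15.63, 15.87, 13.94 and 14.11 CPM, and the UAS control 18.27, 19.65, 13.99, 16.36 and 14.11 CPM. All 5 overexpression libraries lay above all 10 controls. On the log2 scale the difference was 1.26 (SE 0.13) against repo-Gal4 and 1.06 (SE 0.13) against UAS, with edgeR adjusted p of 0.000286 and 0.000594. Without UAS control 2 and repo-Gal4 control 3 the differences were 1.30 and 1.14, each with an adjusted p of 2.4e-05.

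Against the repo-Gal4 control, 1 of 40 tested members was called (2.5%), beside 0.484% of all 11149 genes, 0.35% being called higher. Against the UAS control 4 of 40 were called, beside 1.13% of all genes. Cpr76Bc, Cpr47Ee and Cpr72Ec were higher, beside 0.753% of all genes, and Cpr92F was lower, beside 0.377%. Against both controls with the same sign, 0.161% of all genes were called, and 0.0987% were called higher. The median log2 fold change of the tested members was 0.05 against repo-Gal4 and -0.12 against UAS, beside -0.02 and -0.09 over all genes. Without the 2 doubted libraries these medians were 0.22 and 0.04 for the members, so that the sign against UAS turned, and 0.03 and 0.03 over all genes.

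Without the 2 libraries low in long transcripts, 4 members were called against both controls, beside 3.97% of all genes: Cpr76Bc, Cpr47Ee and Cpr49Aa were higher and Cpr49Af was lower. The counts were then 7 against repo-Gal4, beside 6.35% of all genes, and 15 against UAS, beside 17.2%. Against repo-Gal4, Cpr47Ea, Cpr62Bc and Cpr76Bb were then also called lower. Against UAS, Cpr49Ab, Cpr50Ca, Cpr72Ec, Cpr97Ea, Cpr97Eb and Cpr100A were also called higher, and Cpr11A, Cpr11B, Cpr49Ae, Cpr64Ac and Cpr92F lower. Of the abundant ones, Cpr97Eb differed from UAS by 0.58 (SE 0.10, edgeR adjusted p = 0.00278) and Cpr97Ea by 0.55 (SE 0.12, adjusted p = 0.0103). Cpr11B differed by -0.58 (SE 0.10, adjusted p = 0.00183) and Cpr49Ae by -0.29 (SE 0.07, adjusted p = 0.0168). With all libraries none of these 4 was called, at adjusted p of 0.819, 0.493, 0.136 and 0.819 in the same order. Without the 2 doubted libraries none of the 4 was called against repo-Gal4. For Cpr11B the repo-Gal4 control itself then differed from UAS by -0.77 (SE 0.10, edgeR adjusted p = 0.000726). Overexpression of bchs differed there from repo-Gal4 by 0.19 (SE 0.10, adjusted p = 0.208). Cpr49Aa was at 5.627, 6.544, 6.283, 4.122 and 5.243 CPM in glial overexpression. The repo-Gal4 control had 2.917, 3.026, 5.986, 2.991 and 2.401 CPM and the UAS control 2.944, 9.728, 2.139, 2.771 and 1.921. The only control values inside or above the overexpression range were those of the 2 doubted libraries. With them the log2 fold changes were 0.68 (SE 0.41) and 0.51 (SE 0.41), with edgeR adjusted p of 1 and 0.819, and without them 0.98 (SE 0.16) and 1.20 (SE 0.16), with 0.00306 and 0.000378.

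**Figure D3:**
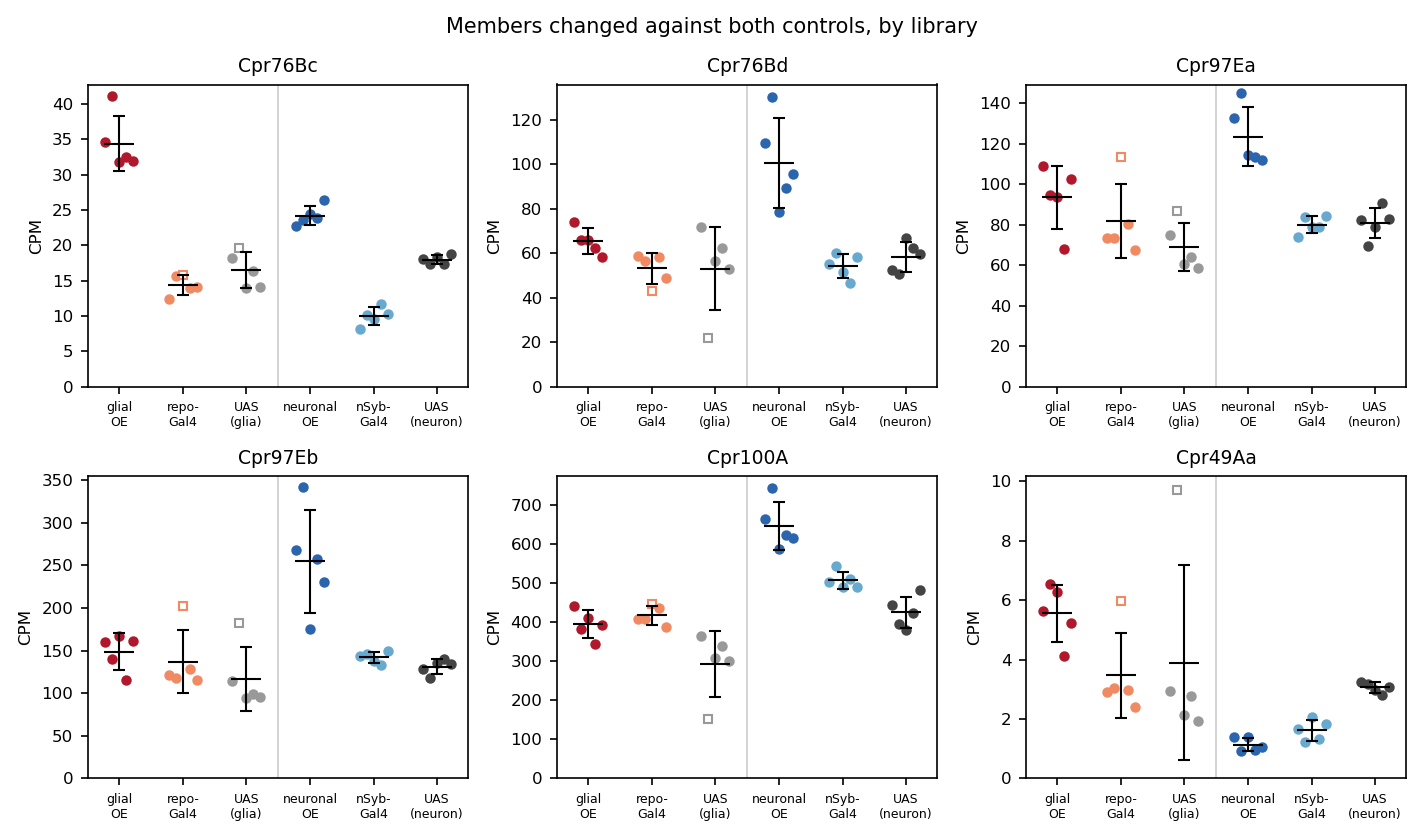
CPM per library in the 6 groups (left of the line the glia dataset, right of it the neuron dataset; OE, overexpression; horizontal tick and bar, mean ± SD of 5 libraries; open squares, the 2 libraries low in long transcripts) for the 6 genes changed against both controls in either dataset. Cpr76Bc is higher in both overexpression groups, the next 4 genes are higher in neuronal overexpression, and Cpr49Aa is lowest there.

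Under neuronal overexpression, 5 members rose against both controls and 1 fell. Cpr76Bc, its neighbour Cpr76Bd, the adjacent pair Cpr97Ea and Cpr97Eb, and Cpr100A were higher, and Cpr49Aa was lower. In all, 12 of 39 tested members were called against nSyb-Gal4 (30.8%, beside 16.5% of all 10778 genes) and 19 against UAS (48.7%, beside 38.6%). Against nSyb-Gal4, 8 were higher and 4 lower, beside 8.19% and 8.34% of all genes, and against UAS 10 were higher and 9 lower, beside 18.3% and 20.2%. The 6 called against both controls were 15.4% of those tested, beside 10.2% of all genes, of which 4.74% were higher and 5.43% lower. The median log2 fold change was 0.01 against nSyb-Gal4 and -0.04 against UAS, beside -0.00 and -0.01 over all genes.

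For Cpr76Bc, the neuronal overexpression libraries had 22.69, 23.57, 24.36, 23.91 and 26.41 CPM. The nSyb-Gal4 control had 8.112, 10.21, 9.605, 11.69 and 10.29 CPM, and the UAS control 18.1, 17.33, 18.33, 17.31 and 18.73. The 3 groups did not overlap, with the driver control lowest. The log2 difference was 1.27 (SE 0.07) against nSyb-Gal4 and 0.43 (SE 0.07) against UAS, with edgeR adjusted p of 5.05e-09 and 0.000252. The controls themselves differed by -0.85 (SE 0.07, adjusted p = 3.46e-07), driver minus transgene. The glial effect on Cpr76Bc minus the neuronal effect was 0.29 (SE 0.13, adjusted p = 0.519) with all libraries and 0.36 (SE 0.11, adjusted p = 0.0165) without the 2 doubted ones.

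Cpr76Bd (FBgn0036881, 3L:19532743-19538289) was at 109.4, 130.4, 78.39, 89.28 and 95.6 CPM in neuronal overexpression. It was at 46.65 to 60.19 CPM for nSyb-Gal4 and at 50.75 to 66.79 for UAS. All overexpression libraries lay above all controls. The log2 fold changes were 0.89 (SE 0.12) and 0.78 (SE 0.12), with edgeR adjusted p of 0.000113 and 0.000156. Of the other genes of the cluster, Cpr76Bb had -0.08 (SE 0.15) against nSyb-Gal4 and -0.29 (SE 0.15) against UAS, neither of them called, and Cpr76Ba was not tested there.

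Cpr97Ea and Cpr97Eb (3R:27083130-27091130) both rose. Cpr97Eb (FBgn0039481) had 268.3, 341.9, 175.8, 257.3 and 231.1 CPM in neuronal overexpression, against 133.6 to 149.8 for nSyb-Gal4 and 117.5 to 140.4 for UAS. The groups did not overlap, and the third overexpression library was the lowest of its group. Its log2 fold changes were 0.84 (SE 0.12) and 0.96 (SE 0.12), with edgeR adjusted p of 0.000198 and 2.84e-05. Cpr97Ea (FBgn0039480) had 132.7, 144.8, 114.5, 113.3 and 111.7 CPM, above the 69.63 to 90.54 CPM of all 10 controls. Its log2 fold changes were 0.62 (SE 0.08) and 0.61 (SE 0.08), with adjusted p of 3.89e-05 and 2.51e-05.

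Cpr100A (FBgn0039805, 3R:30867521-30869184), one of the most abundant members, had 663.4, 745.1, 587.5, 623.5 and 616.5 CPM in neuronal overexpression. The nSyb-Gal4 control had 489.1 to 543.8 CPM and the UAS control 379.6 to 482.0. The 3 groups did not overlap. The log2 fold changes were 0.35 (SE 0.07) and 0.61 (SE 0.07), with edgeR adjusted p of 0.00282 and 1.02e-05. In the glia dataset the values were -0.08 (SE 0.20) against repo-Gal4 and 0.43 (SE 0.20) against UAS, neither of them called. Without the 2 doubted libraries the latter was 0.28 (SE 0.08) and was called, with an adjusted p of 0.0383.

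The 5 calls against both controls of higher members held in each of the 15 fits that left out 1 library. Cpr49Aa (FBgn0050045, 2R:12376626-12377378), the member that fell, had 1.385, 0.9183, 1.381, 0.9563 and 1.039 CPM in neuronal overexpression. The nSyb-Gal4 control had 1.653, 1.211, 2.073, 1.331 and 1.814 CPM and overlapped it, while the UAS control, at 2.818 to 3.256, did not. The log2 fold changes were -0.51 (SE 0.16) and -1.43 (SE 0.15), with edgeR adjusted p of 0.0321 and 2.34e-06. Against nSyb-Gal4 the call was lost in 6 of 15 fits, without neuronal overexpression 2, 4 or 5 or without nSyb-Gal4 control 1, 3 or 5, with log2 values from -0.50 to -0.41 and adjusted p over all 15 fits from 0.015 to 0.0911.

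Neuronal overexpression replicate 3 differed from the other 4 in several members. It was the lowest of its group for Cpr76Bd, Cpr97Eb and Cpr100A and the highest for Cpr49Ag, Cpr49Ae, Cpr47Ee and Cpr72Ec. Without it, 16 members were called against nSyb-Gal4, beside 16.3% of all genes, and 21 against UAS, beside 33.1%. The number called against both was 10, beside 10.2% of all genes, Cpr51A and Cpr56F joining the higher ones and Cpr47Ee and Cpr49Ae the lower ones.

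**Figure D4:**
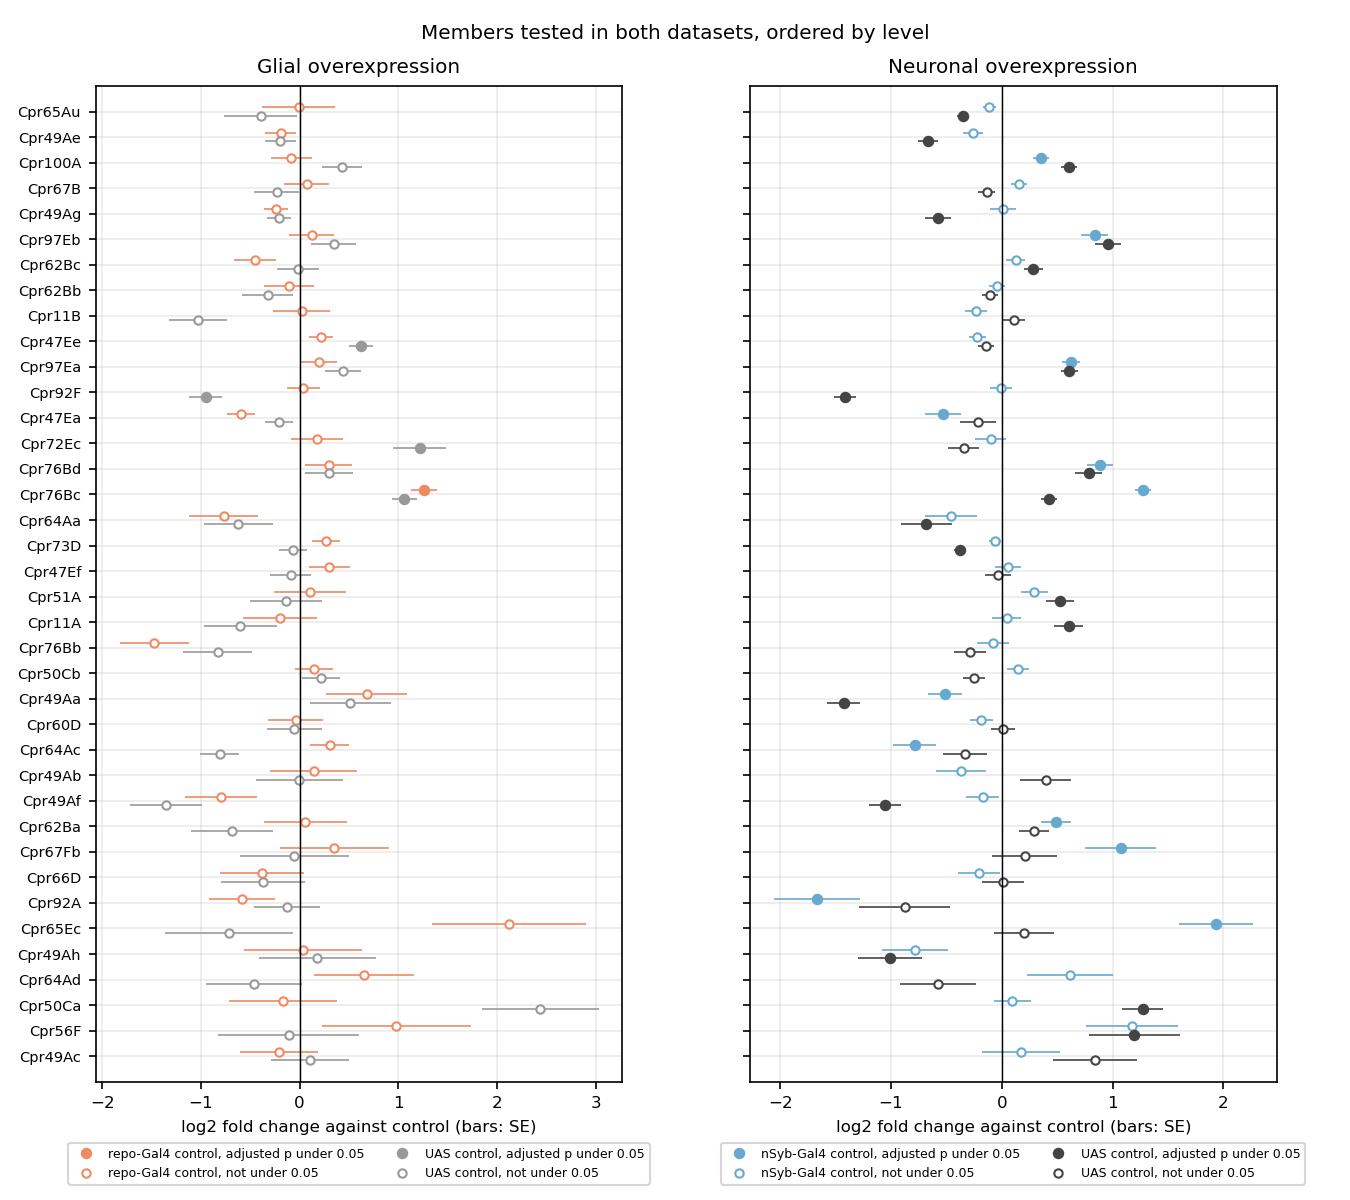
Log2 fold change of overexpression against each control, with its SE (bars), for the 38 genes tested in both datasets, ordered by level. Filled points passed an adjusted p of 0.05 and open points did not. In the glia panel Cpr76Bc alone is filled for both controls. In the neuron panel Cpr76Bc, Cpr76Bd, Cpr97Ea, Cpr97Eb, Cpr100A and Cpr49Aa are.

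Members called against the UAS control of the neuron dataset included several of 1 cluster. In the Cpr49A cluster, 5 of 7 tested genes (Cpr49Aa, Cpr49Ae, Cpr49Af, Cpr49Ag and Cpr49Ah) were lower in neuronal overexpression than in the UAS control and none was higher, beside 20.2% of all genes called lower in that comparison. Cpr49Ae (FBgn0033728, 2R:12402216-12405108) had 344.6, 292.4, 396.2, 303.7 and 287.6 CPM in overexpression, beside 366.2 to 421.5 for nSyb-Gal4 and 448.0 to 602.2 for UAS. Overexpression overlapped the driver control and lay below the UAS control, from which it differed by -0.67 (SE 0.09, edgeR adjusted p = 3.75e-05). The nSyb-Gal4 control was also below the UAS control for Cpr49Aa, Cpr49Ae, Cpr49Af and Cpr49Ag, but above it for Cpr49Ab (0.76, SE 0.23, edgeR adjusted p = 0.0258; the call was lost in 3 of 15 fits that left out 1 library, with log2 values over all 15 of 0.52 to 0.87), and only Cpr49Aa of the cluster was called against nSyb-Gal4.

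Against nSyb-Gal4 alone, Cpr62Ba, Cpr65Ec and Cpr67Fb were higher and Cpr47Ea, Cpr64Ac and Cpr92A were lower. Cpr92A was at 0.311 ± 0.122 CPM (SD, n = 5) in overexpression and 1.00 ± 0.540 in the driver control. Cpr64Ac was at 3.27 ± 0.531 against 5.64 ± 1.75 CPM. Against UAS alone, Cpr11A, Cpr50Ca, Cpr51A, Cpr56F and Cpr62Bc were higher, and Cpr49Ae, Cpr49Af, Cpr49Ag, Cpr49Ah, Cpr64Aa, Cpr65Au, Cpr73D and Cpr92F were lower. In some of the 15 fits that left out 1 library, the calls of Cpr47Ea (lost in 8 fits), Cpr67Fb (6) and Cpr62Ba (3) against nSyb-Gal4 and of Cpr64Aa (5) and Cpr56F (4) against UAS were lost.

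A share of the family separated the controls from each other. Between the nSyb-Gal4 and UAS controls 17 of 39 members differed (43.6%, beside 25.6% of all genes), 5 being higher and 12 lower in the driver control, beside 11.8% and 13.8%. Between the repo-Gal4 and UAS controls 2 of 40 differed (5.0%, beside 0.888%), Cpr92F and Cpr64Ac, both lower in the driver control, beside 0.431% of all genes called lower. Without the 2 doubted libraries this count was 8, beside 4.35% of all genes. Cpr47Ee, Cpr50Ca, Cpr72Ec and Cpr76Bb were then higher in the driver control, and Cpr11B, Cpr47Ef, Cpr64Ac and Cpr92F lower.

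Cpr92F (FBgn0038819, 3R:20669571-20672821) was high in both UAS controls. It had 96.9, 80.4, 92.44, 97.05 and 84.23 CPM in the UAS control of the glia dataset and 128.7, 104.4, 100.7, 131.5 and 131.0 in that of the neuron dataset. The 4 groups with a Gal4 driver, overexpression included, lay between 35.83 and 60.53 CPM, and none of their 20 libraries reached a UAS control. Overexpression against UAS gave -0.95 (SE 0.17, edgeR adjusted p = 0.0123) in the glia and -1.41 (SE 0.10, adjusted p = 2.59e-08) in the neuron dataset. Overexpression against the driver control gave 0.04 (SE 0.17) and -0.01 (SE 0.10), neither of them called. The glia and the neuron comparisons rest on separate libraries, and Cpr92F was singled out after its values were seen.

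Cpr50Ca (FBgn0033867, 2R:13769915-13787802), singled out in the same way, showed the reverse order. It was at 0.3002 to 0.4169 CPM in the UAS control of the neuron dataset, 0.7215 to 0.9974 in neuronal overexpression and 0.6017 to 1.133 with nSyb-Gal4 alone. Overexpression differed from UAS by 1.27 (SE 0.18, edgeR adjusted p = 6.83e-05) and from nSyb-Gal4 by 0.10 (SE 0.17, adjusted p = 0.79). In the glia dataset it was at 0 to 0.4403 CPM in the UAS control, 1.296 to 1.95 in overexpression and 1.975 to 2.256 with repo-Gal4 alone except for 0.5707 in replicate 3. There the difference from UAS was 2.44 (SE 0.59, adjusted p = 0.0719), and without the 2 doubted libraries 2.14 (SE 0.22, adjusted p = 5.1e-05).

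Cpr65Ec (FBgn0035737, 3L:7093204-7093841), a member near the detection limit, was low in the driver controls. It had 6 counts or fewer in each nSyb-Gal4 library (0.04994 to 0.1425 CPM) and 0.2803 to 0.455 CPM in neuronal overexpression, with 0.1201 to 0.389 in the UAS control. The log2 difference from nSyb-Gal4 was 1.93 (SE 0.33, edgeR adjusted p = 0.000745). No repo-Gal4 library had more than 3 counts, and glial overexpression had 0 to 0.2828 CPM.

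**Figure D5:**
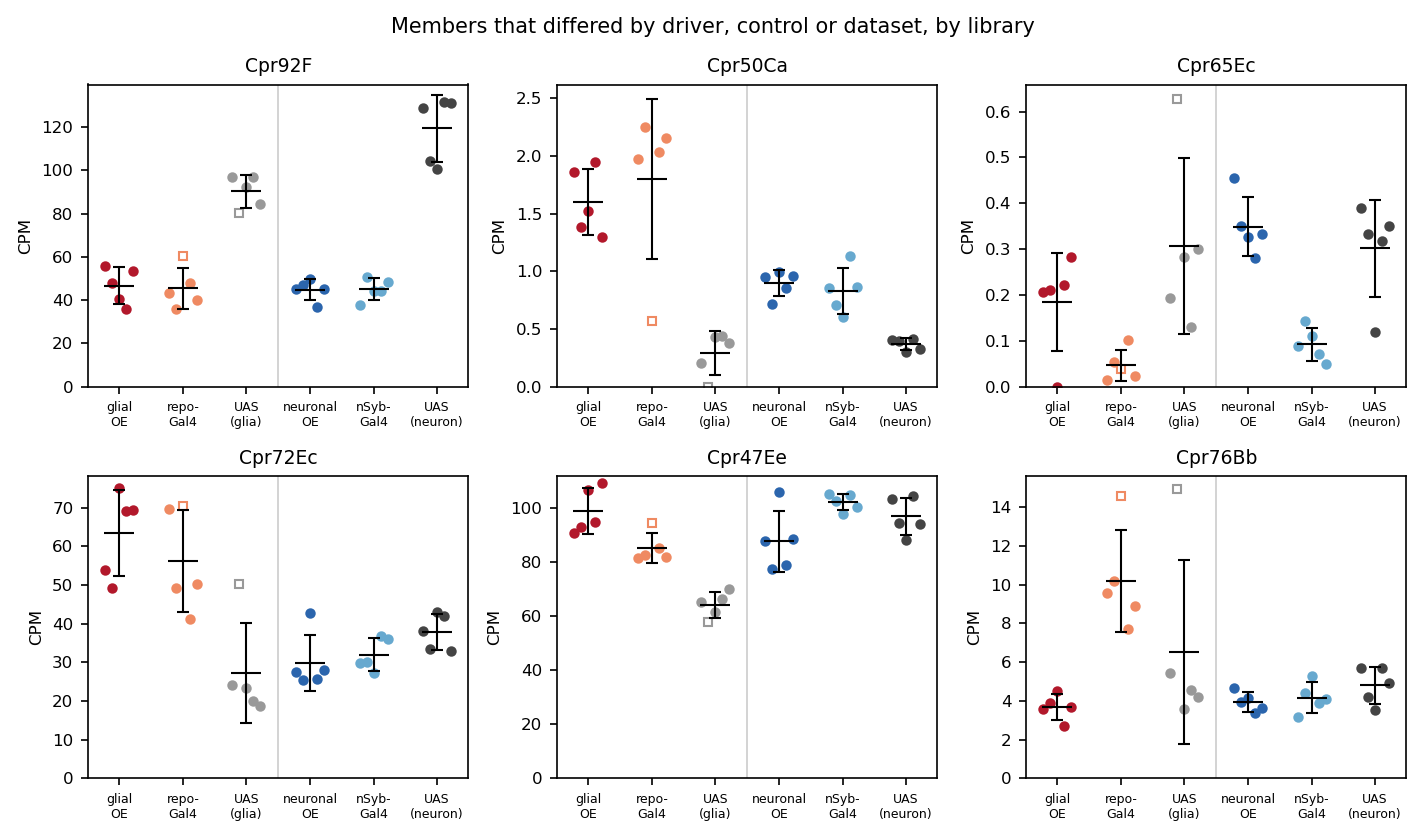
CPM per library for 6 genes whose groups differed by control or dataset, drawn as in the plot of the changed genes (OE, overexpression; tick and bar, mean ± SD of 5 libraries; open squares, the 2 libraries low in long transcripts). Cpr92F is high in both UAS controls and between 35.83 and 60.53 CPM elsewhere, Cpr50Ca is low in both, and Cpr47Ee is lowest in the UAS control of the glia dataset.

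The glial and the neuronal effect, each measured from the average of the 2 controls in its dataset, differed in 1 of 41 tested members (2.44%, beside 1.1% of 11137 genes, with 0.548% in the direction of a higher glial effect). That member was Cpr47Ee (FBgn0033602, 2R:11265126-11266856), with a difference of 0.58 (SE 0.11, edgeR adjusted p = 0.00487). Glial overexpression had 90.53, 92.8, 106.7, 94.64 and 109.2 CPM, the repo-Gal4 control 81.64, 82.52, 94.53, 85.08 and 81.84, and the UAS control 65.28, 57.62, 61.45, 66.46 and 70.01. Neuronal overexpression had 87.87, 77.51, 105.8, 78.89 and 88.57 CPM, beside 97.83 to 105.2 for nSyb-Gal4 and 88.09 to 104.2 for UAS. In the glia dataset overexpression was the highest group and lay clear of the UAS control. In the neuron dataset 4 of 5 overexpression libraries lay below all nSyb-Gal4 libraries.

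The glial call of Cpr47Ee against UAS (0.62, SE 0.12, edgeR adjusted p = 0.0199) was lost without glial overexpression 3 or 5 or without UAS control 1, 3 or 4, with log2 values of 0.58 to 0.62 and an adjusted p of at most 0.0731 over all 15 fits. The difference of effects kept its call in all 30 fits that left out 1 library, with an adjusted p of 0.000456 to 0.0202. Without the 2 doubted libraries, 12 members differed between the effects, 6 in each direction, a smaller share of those tested than the 34.2% of all genes. Cpr49Aa then had the difference of 2.05 (SE 0.20, adjusted p = 1.01e-07), against 1.54 (SE 0.41, adjusted p = 0.0623) with all libraries. It was higher than both controls in glial and lower than both in neuronal overexpression.

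The UAS controls of both datasets have the same labelled genotype. They differed in 3 of 41 members (7.32%, beside 3.05% of all genes), all of them lower in the glia dataset, beside 1.71% of all genes called lower: Cpr47Ee by -0.51 (SE 0.09, edgeR adjusted p = 0.00121), Cpr73D by -0.56 (SE 0.11, adjusted p = 0.0033) and Cpr49Ag by -0.44 (SE 0.12, adjusted p = 0.0347). The call of Cpr49Ag was lost in 16 of 30 fits that left out 1 library, with log2 values of -0.46 to -0.33 over all of them. Without the 2 doubted libraries 12 members differed, a smaller share of those tested than the 51.4% of all genes called in either direction. All 12 were again lower in the glia dataset. The share of all genes called lower in this setting is not given here, so the shared direction is no result about the family. Among them were Cpr65Au with -0.47 (SE 0.08, adjusted p = 1.72e-05), which had 0.14 (adjusted p = 0.853) with all libraries, and Cpr67B with -0.33 (SE 0.08, adjusted p = 0.00185), which had -0.10 (adjusted p = 0.829). Cpr11B was also among these 12, with -0.58 (SE 0.11, edgeR adjusted p = 0.000149). Its driver groups differed between datasets as well, with 20.68 to 40.33 CPM in glial overexpression and the repo-Gal4 control and 67.41 to 110.0 CPM in neuronal overexpression and the nSyb-Gal4 control. That difference between driver groups was not tested.

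Of the lens proteins, retinin had 2441 to 9779 CPM and Crys 194.9 to 313.5 CPM over all libraries, Cpr72Ec 18.64 to 75.2 CPM and Cpr66D 0.09583 to 1.411 CPM. None of the 4 was called against both controls in either dataset. Without the 2 doubted libraries, retinin and Cpr72Ec were called higher than UAS in glial overexpression and in the repo-Gal4 control. Between UAS controls, Cpr66D, Cpr72Ec and retinin were then called lower in the glia dataset. The shares of all genes in these comparisons are given above. In the neuron dataset retinin was called higher with nSyb-Gal4 alone than in the UAS control. Cpr72Ec (FBgn0036619, 3L:16365894-16367340) had 54.02, 49.36, 75.2, 69.26 and 69.34 CPM in glial overexpression, 69.8, 49.16, 70.49, 41.3 and 50.42 with repo-Gal4 alone, and 24.17, 50.19, 23.44, 20.01 and 18.64 in the UAS control. Only UAS control 2 reached the other groups. Overexpression differed from UAS by 1.22 (SE 0.27, edgeR adjusted p = 0.0454) and from repo-Gal4 by 0.17 (SE 0.27, adjusted p = 1). The call against UAS was lost in 13 of 15 fits that left out 1 library, all but those without UAS control 2 and repo-Gal4 control 3, with adjusted p from 0.000242 to 0.132. In the neuron dataset Cpr72Ec lay between 25.56 and 43.13 CPM in all 3 groups, and overexpression was called against neither control. Without neuronal overexpression 3, the highest of its group, it was called lower than UAS (-0.50, SE 0.10, edgeR adjusted p = 0.00118). Against nSyb-Gal4 the difference was then -0.26 (SE 0.10, adjusted p = 0.0816).

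Other cuticle genes were counted in lists written from textbook knowledge. Of 29 further genes with the Rebers-Riddiford consensus, 16 were tested in the neuron dataset, where 5 rose against both controls (Ccp84Ab, Ccp84Ac, Ccp84Ad, Ccp84Ag and Lcp9) and 2 fell (Edg78E and resilin, an elastic protein of wing hinge and tendons), beside 4.74% and 5.43% of all genes. The Ccp84A genes form a cluster of related copies, so that reads may be split among them. Ccp84Ab had 60.51, 74.8, 24.09, 44.02 and 47.77 CPM in neuronal overexpression, beside 6.026 to 16.22 for nSyb-Gal4 and 6.994 to 10.7 for UAS, without overlap. Its log2 fold changes were 2.35 (SE 0.31) and 2.46 (SE 0.31), with edgeR adjusted p of 0.000205 and 6.57e-05. Replicate 3 was again the lowest of its group. Ccp84Ad changed by 1.70 (SE 0.23) and 2.20 (SE 0.23), with adjusted p of 9.2e-05 and 4.39e-06.

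Of 30 genes of chitin synthesis and remodelling, 25 were tested in the neuron dataset, and 7 rose against both controls while none fell, beside 4.74% and 5.43% of all genes. They were the chitin synthase gene kkv, knk, whose product organises newly made chitin, exp, needed for chitin deposition, nst, an enzyme on the path to the chitin precursor, the chitin-binding protein obst-A, the deacetylase Cda4 and the chitinase Cht7. Their log2 fold changes were modest: obst-A changed by 0.46 (SE 0.09) against nSyb-Gal4 and 0.98 (SE 0.09) against UAS, with edgeR adjusted p of 0.00171 and 4.77e-07, and knk by 0.34 (SE 0.08) and 0.26 (SE 0.08), with 0.00958 and 0.0213. Of the 8 tested tanning genes, 2 rose against both controls, beside the same 4.74% of all genes, the pigmentation gene y and stw, which encodes a laccase. For y the log2 fold changes were 1.20 (SE 0.13) and 0.61 (SE 0.13), with adjusted p of 1.14e-05 and 0.00178.

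No member of the remaining lists passed both tests in the neuron dataset: 0 of 6 tested Tweedle genes, 0 of 16 moulting hormone receptors and their targets, and 0 of 4 genes of the bursicon pathway. Counts of 0 in lists this short do not set them apart from the share of all genes called against both controls, given above. Of the 16 moulting hormone genes, 11 were higher and 2 lower against UAS, beside 18.3% and 20.2% of all genes, and none was called against nSyb-Gal4, beside 16.5%. In the glia dataset no gene of these lists was called against both controls with all libraries. Without the 2 doubted ones, the chitin genes Cht5 and obst-E were called higher and the tanning gene Ddc lower against both, beside 3.97% of all genes called. In neuronal overexpression the muscle gene Mhc was at 2706 to 3950 CPM, against 4307 to 5180 in its controls, and the summed level of 3 muscle markers was 3946 to 5453 against 5641 to 6806 CPM. The glial gene repo was at 58.02 to 63.28 CPM, against 64.33 to 80.42, and the photoreceptor gene Rh6 at 210.0 to 229.4 against 238.8 to 399.3. The part of such shifts in the values of cuticle genes was not tested. Both repo and Rh6 are single genes from lists of 2 glial and 4 photoreceptor genes. Values of the other listed genes in overexpression are not given here, so these 2 do not stand for their cell types.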

How the data were processed

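The authors deposited raw read counts per gene for each library, 1 file per sample, with FlyBase identifiers. Per the submitters' processing notes, STAR and HTSeq and build BDGP6 were used. Versions, annotation release and strand setting are not given in the sources used here. Symbols, coordinates and exon lengths were looked up by identifier in an Ensembl annotation (build BDGP6.54). Unassigned reads and features other than genes, mainly transposable element insertions, stayed out of library sizes, and the latter held at most 0.104% of the counts in features.

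Each dataset of 15 libraries was fitted with its 3 groups in edgeR 4.0.16 (R 4.3.3) with filterByExpr, TMM scaling, robust quasi-likelihood F tests and adjustment over all genes tested. The difference of effects and the comparison of UAS controls came from 1 fit of all 30 libraries. SEs are those implied by the F statistic. CPM were computed with TMM-adjusted library sizes. Alternatives were DESeq2 1.42.0, its size factors, no filter, replicate number as a block, length slope as a covariate, libraries left out singly or together, and 1 fit of all libraries. Scripts were tested on simulated data. Figures used matplotlib 3.10.9.

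Genes named in the text were Cpr76Bc, the 10 members highest per kilobase, members called against both controls, in the difference of effects or between UAS controls, lens genes, and genes of other lists called against both controls. Beyond this rule, Cpr49Ab, Cpr49Ad, Cpr49Af, Cpr50Ca, Cpr51A, Cpr64Ac, Cpr65Ec, Cpr76Bb, Cpr92A and Cpr92F are given with values and were chosen after these were seen. Members and lists were chosen with earlier results of these data known. Of 9 tanning genes listed, 8 matched. Protein and promoter sequences were not used here.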

Additional observations from a re-analysis of the deposited data

Results flagged for a closer look

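In 126 groups of 5 libraries, the highest or lowest value was tested for its gap to the nearest other library relative to the range of the group, and 22 passed the critical value of 0.71. Chance gives about 1 in 20 for genes picked without regard to their values. The groups were those of members named by rule and of Cpr49Af, Cpr50Ca, Cpr65Ec and Cpr92F. These last were chosen after their values were seen, and many members named by rule were picked by their level or calls in the same libraries. The rate therefore does not hold for either set, and genes of 1 library are not independent tests. Of the 22, 10 were in UAS control 2 of the glia dataset and 8 in repo-Gal4 control 3, the libraries low in long transcripts.

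In UAS control 2, the values above the others were 532.3 CPM for Cpr65Au, 325.5 for Cpr67B, 182.3 for Cpr97Eb, 163.1 for Cpr62Bb, 119.0 for Cpr11B, 50.19 for Cpr72Ec, 11 for Cpr49Af, 9.728 for Cpr49Aa and 1.107 for Cpr66D. Cpr49Ae, at 291.2 CPM, lay below the other 4, which had 440.8 to 476.5. In repo-Gal4 control 3, Cpr65Au had 262.7 CPM, Cpr67B 234.9, Cpr97Eb 202.1, Cpr97Ea 113.2, Cpr62Bb 100.7, Cpr47Ee 94.53 and Cpr49Aa 5.986, all above the other 4 libraries. Cpr50Ca, at 0.5707 CPM, lay below them.

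Outside those libraries, neuronal overexpression 3 had 42.66 CPM of Cpr72Ec against 25.56 to 28.07 in the other 4. Glial overexpression 3 had no count of Cpr65Ec (0.0 CPM) against 0.2066 to 0.2828. In the UAS control of the neuron dataset, replicate 3 had 0.1201 CPM of Cpr65Ec and replicate 2 had 3.508 CPM of Cpr49Af, both below the others. The effect on Cpr47Ee differed between glial and neuronal overexpression by 0.58 on the log2 scale (edgeR adjusted p = 0.00487).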

How the results depend on the processing

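None of the 69 results on single members that were followed through the alternatives reversed its direction. Differences that were not called with all libraries and were not followed there could turn: without the 2 libraries low in long transcripts, Cpr49Ab against UAS in the glia dataset went from -0.01 to 0.80 (adjusted p = 0.0156), and between UAS controls Cpr65Au went from 0.14 to -0.47, Cpr49Af from 0.05 to -0.52 and Cpr51A from 0.05 to -0.46, each called lower in the glia dataset. Counts of called members in this section stand without the share of all genes, which also changes with the setting. They describe the alternatives and are no result about the family. Counts of called members in the neuron dataset stayed within 1.5 times of those reported under DESeq2, its size factors, no filter and the replicate block. They were lower in 1 fit of all 30 libraries, with 6 against nSyb-Gal4, 11 against UAS and 3 between the controls, where the glia dataset had 3 against repo-Gal4, 8 against UAS and 7 between its controls. With DESeq2 the glia dataset had 3, 8 and 7, and the difference of effects 3 members, or 2 with DESeq2's size factors in edgeR.

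Without the 2 libraries low in long transcripts the glia dataset had 7 against repo-Gal4, 15 against UAS, 8 between controls and 4 against both, with 12 members in the difference of effects and 12 between UAS controls. Without the 4 libraries of length slope under -0.3, an alternative chosen after seeing the data, these were 6, 13, 13, 3, 13 and 13, and with the slope as a covariate 6, 17, 11, 4, 10 and 13. Without the 2 libraries, the share of all genes called was higher too in each of these comparisons, as given above. Without the 4, Cpr47Ee and Cpr49Af lost their calls against both glia controls, with edgeR adjusted p of 0.0867 and 0.0678 against repo-Gal4. Cpr76Bc and Cpr49Aa kept theirs, and Cpr49Ag was then called lower against both.

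Leaving out 1 library at a time gave, in the glia dataset, 1 to 4 members against repo-Gal4, 2 to 7 against UAS, 2 to 8 between controls and 1 to 2 against both. It gave 5 to 10 against both in the neuron dataset, 1 to 8 in the difference of effects and 2 to 10 between UAS controls. The highest glia values came without UAS control 2 and the highest neuron value without neuronal overexpression 3. Of 69 results on single members, 13 crossed the threshold in at least 1 such fit.

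No clear pairing by replicate number was seen: deviations of same-numbered samples correlated at -0.78 to 0.66 in the glia dataset (8 of 15 pairs over 0.1) and at -0.46 to 0.24 in the neuron dataset (1 of 15). Their mean was 0.0764 in the glia dataset, beside 0.0616 for samples of other numbers, and -0.0059 beside 0.0013 in the neuron dataset. Values as widely spread as those of the glia dataset cannot exclude a pairing there. With the replicate block 1 member was called against repo-Gal4, 1 against UAS, 0 between the glia controls in edgeR (7 by DESeq2 without the block), 12 against nSyb-Gal4, 19 against UAS, 17 between the neuron controls and 2 in the difference of effects. Against both controls the block gave 1 in the glia and 7 in the neuron dataset. The block could not be fitted between the UAS controls, since numbers are nested in datasets. Members with few counts limit the precision: 28 of 70 had a mean under 0.1 CPM.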
